A study of Arabidopsis thaliana with 6 samples.

Results

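Etiolated seedlings of an Arabidopsis thaliana line with mutations in tryptophan aminotransferase genes were set directly against wild-type seedlings fed kynurenine, an inhibitor of the same enzymes. The libraries were taken by their labels, 4 of the 6 of the series, with 2 biological repeats of each group. The first group, wei8tar2_MS, is a line in the Col-0 accession that the labels give as wei8-/- tar2+/-, grown on MS, the mineral medium of Murashige and Skoog. WEI8 is another name of TAA1. The labels do not say which seedlings of this segregating line were pooled. The second group, Col_Kyn, is wild-type Col-0 that grew on MS with kynurenine. The labels give its dose as 25 mM, and this unit was not checked against another source. The remaining 2 libraries, Col_MS, are wild-type Col-0 on MS. They share no treatment with Col_Kyn and no mutation with the line, and they serve below to show on which side a difference lies. In all groups the seeds were imbibed for 3 days at 4 °C. The seedlings then grew for 3 days in darkness at 22 °C.

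TAA1 and its relatives TAR1 and TAR2 convert tryptophan to indole-3-pyruvic acid, and flavin monooxygenases of the YUCCA family convert that to indole-3-acetic acid (IAA), the main natural auxin. Auxin made by this route shapes the apical hook, the root meristem and the response of etiolated seedlings to ethylene. A mutation removes or lowers an enzyme from the start of development, whereas kynurenine binds in the active site of the enzyme and leaves its gene untouched.

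The libraries held 18138087 to 31807206 uniquely mapped reads in tested genes. Levels are in CPM (reads of a gene relative to all reads of its library), scaled with TMM factors of 0.964 to 1.03, and are given for replicate 1 and then replicate 2. In whole seedlings, fewer cells of a type and less RNA per cell cannot be told apart. Genes of dark growth were abundant in all libraries: the protochlorophyllide reductase gene PORA had 1151 and 1275 CPM in wei8tar2_MS and 1097 and 1381 CPM in Col_Kyn, and the photoreceptor gene PHYA had 888 and 856 CPM in wei8tar2_MS and 922 and 984 CPM in Col_Kyn. Within Col_Kyn, the genes of light harvesting differed between the repeats, as described below. The repeats of Col_MS differed in several of the gene lists used below. The camalexin synthesis gene PAD3 had 62.5 and 1.23 CPM in Col_MS. Summed levels in Col_MS were 3640 and 1550 CPM for the xenobiotic detoxification genes and 601 and 318 CPM for the tryptophan biosynthesis genes. In such lists the side of Col_MS on which a difference lies is less certain.

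Between the line and the kynurenine-fed wild type, 6 of 21326 tested genes differed at an adjusted p under 0.05 (edgeR's quasi-likelihood test with Benjamini-Hochberg adjustment), which is 0.0281% of the genes. Of these, 2 were higher in the line (0.00938%) and 4 were lower (0.0188%). The unadjusted p was under 0.05 for 921 genes, 4.32% of those tested, with 533 higher in the line (2.5%) and 388 lower (1.82%). DESeq2 called 58 genes (0.272%), 40 higher (0.188%) and 18 lower (0.0844%), among them all 6, and limma-voom called 6 (0.0281%). The same edgeR fit called 230 genes between wei8tar2_MS and Col_MS (1.08%) and 78 between Col_Kyn and Col_MS (0.366%). These 3 comparisons share libraries, so that their counts are not independent. The 6 rose to 17 without Col_MS replicate 1 and to 12 without Col_MS replicate 2, although neither compared group holds these libraries, and lay between 4 and 7 without any library of the line or of Col_Kyn. The cause was not tested.

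For most genes the interval of the difference was narrow. Of 16288 tested genes with a mean of at least 4 CPM in either group, 15460 (94.9%) had a 95% interval of the log2 difference that lay wholly between -1 and 1, that is within a 2-fold difference in either direction. The median standard error was 0.14 on the log2 scale for these genes and 0.39 for the 5038 genes below that level, where a 2-fold difference was often not detectable. Of the 16288 genes, 108 differed at least 2-fold, and in 100 of these the libraries of the groups did not overlap. These 108 genes were chosen by the size of the same difference, so this count carries no test. Over all tested genes the libraries did not overlap for 35.6%. The median log2 difference was -0.01 over all tested genes. Differences are given throughout as wei8tar2_MS minus Col_Kyn on the log2 scale ± standard error, with n = 2 libraries per group.

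**Figure D1:**
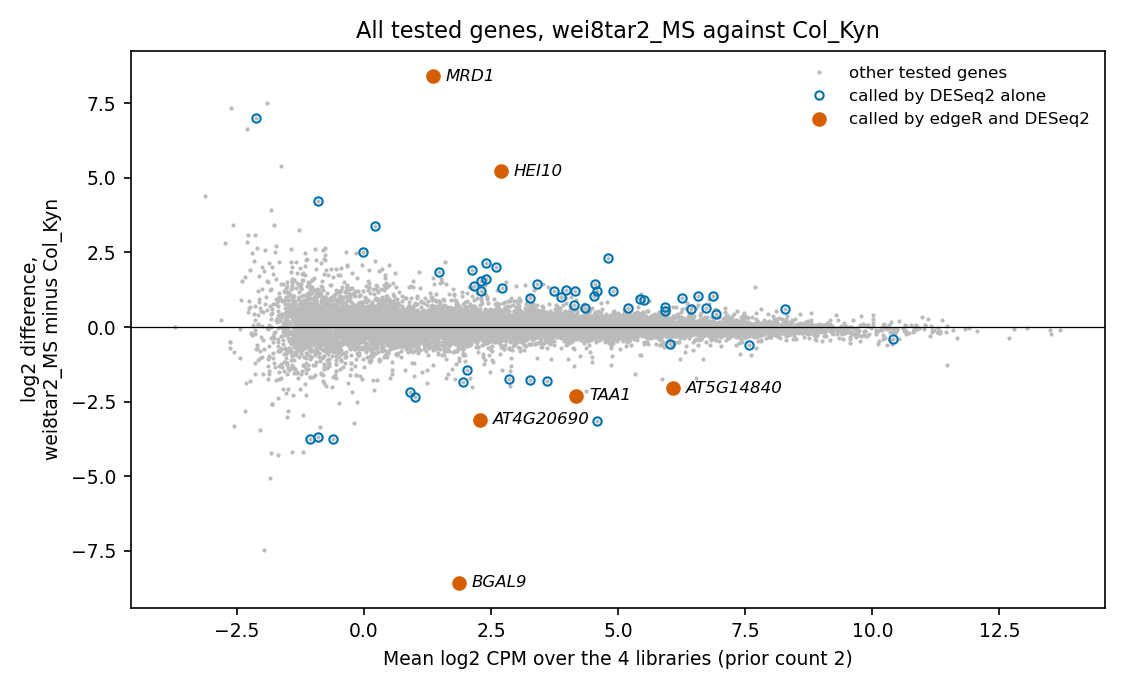
Log2 difference of each tested gene, wei8tar2_MS minus Col_Kyn (vertical axis), against its mean log2 CPM over the 4 libraries (horizontal axis, prior count 2). Filled points are the 6 genes called by edgeR and DESeq2, open circles the 52 genes called by DESeq2 alone, and grey points the other genes. MRD1 at 8.41 and BGAL9 at -8.56 lie farthest from 0 among the called genes.

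The targeted enzymes came first. TAA1 (AT1G70560, chromosome 1, 26604855 to 26607652, TAIR10.1, plus strand) had 7.89 and 8.36 CPM in wei8tar2_MS, against 38.4 and 41.5 CPM in Col_Kyn and 37.8 and 38.7 CPM in Col_MS. The line held about the same low level in both repeats, and the kynurenine-fed seedlings lay at the level of the untreated wild type. TAA1 fell in the line relative to Col_Kyn (-2.30 ± 0.11, edgeR adjusted p = 0.000473), and it was called whichever of the 6 libraries was left out (adjusted p up to 0.0357). The matching values were -2.24 ± 0.11 for the line against Col_MS (adjusted p = 0.000562) and 0.06 ± 0.10 for Col_Kyn against Col_MS (adjusted p = 0.799). The counts are of the whole gene and do not say where in it the reads lie.

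TAR2 (AT4G24670, chromosome 4, 12727531 to 12731331, minus strand), the gene given as heterozygous, had 2.90 and 2.01 CPM in wei8tar2_MS, against 7.08 and 6.29 CPM in Col_Kyn and 10.1 and 8.11 CPM in Col_MS. The libraries of the groups did not overlap. Its difference of -1.44 ± 0.23 (95% interval -1.99 to -0.90) had an edgeR adjusted p of 0.268 and a DESeq2 adjusted p of 0.000869, so that its call depended on the tool. TAR1 had 0 reads in all 6 libraries, and a floor of 3 reads puts its upper limit at 0.0943 to 0.165 CPM, depending on the library. Of the 16 tested genes of IAA biosynthesis, TAA1 was the only one called by edgeR, and the list had a median of 0.00. In the step after the aminotransferases, YUC9 had 3.63 and 3.67 CPM in wei8tar2_MS, against 2.31 and 2.12 CPM in Col_Kyn (0.72 ± 0.21, adjusted p = 0.884, unadjusted p = 0.00976). YUC8 had 16.1 and 15.4 CPM in wei8tar2_MS, against 11.5 and 17.1 CPM in Col_Kyn, with overlapping libraries (0.15 ± 0.19, adjusted p = 1.00).

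The most extreme difference upwards lay at 1 place on chromosome 1, where MRD1 and HEI10 overlap on opposite strands. MRD1 (AT1G53480, chromosome 1, 19963047 to 19964712, minus strand) is named in the annotation for its lowered transcript in the methionine-accumulating mutant mto1. HEI10 (AT1G53490, chromosome 1, 19963267 to 19966952, plus strand) encodes a RING protein that promotes meiotic crossovers. MRD1 had 37.7 and 35.6 CPM in wei8tar2_MS, against 0.0961 and 0.114 CPM in Col_Kyn and 0.509 and 0.105 CPM in Col_MS. Nearly all of its reads came from the line, with 1928 reads in the 2 libraries of wei8tar2_MS and 5 reads in the 2 of Col_Kyn. The ratio of these levels was 357, with a 95% interval of 153 to 1101 that covers counting error only. MRD1 rose in the line relative to Col_Kyn (8.41 ± 0.43, edgeR adjusted p = 0.000602).

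HEI10 had 38.7 and 36.98 CPM in wei8tar2_MS, against 0.929 and 1.14 CPM in Col_Kyn and 2.22 and 1.65 CPM in Col_MS, and it also rose (5.21 ± 0.20, edgeR adjusted p = 0.00013). The genes share 1446 of the 1666 bases of MRD1, and the described library preparation marks no strand, so reads in that stretch cannot be assigned to either. The counts of the pair moved nearly together. HEI10 exceeded MRD1 by 29 and 36 reads in wei8tar2_MS, against 26 and 18 reads in Col_Kyn and 47 and 44 reads in Col_MS. As levels these excess reads came to 1.06 and 1.42 CPM in wei8tar2_MS, against 0.833 and 1.03 CPM in Col_Kyn and 1.71 and 1.55 CPM in Col_MS. The excess thus lay between 0.833 and 1.42 CPM over both groups while the MRD1 level was 357 times higher in the line, and HEI10 is uncertain as a separate result. Relative to Col_MS, MRD1 stood at 6.89 ± 0.36 in the line (adjusted p = 0.000724) and at -1.52 ± 0.78 in Col_Kyn (adjusted p = 0.365). HEI10 stood at 4.29 ± 0.18 in the line (edgeR adjusted p = 0.000264) and at -0.93 ± 0.22 in Col_Kyn (adjusted p = 0.135).

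The most extreme difference downwards was that of BGAL9 (AT2G32810, chromosome 2, 13919127 to 13925421, minus strand), a beta-galactosidase of the glycosyl hydrolase family that acts on cell wall polysaccharides. BGAL9 had 0.11 and 0.197 CPM in wei8tar2_MS, against 56.6 and 61.6 CPM in Col_Kyn and 57.9 and 58.5 CPM in Col_MS. It was almost unread in the line, with 8 reads in the 2 libraries of wei8tar2_MS against 2845 reads in the 2 of Col_Kyn. Its level was 384 times higher in Col_Kyn (95% interval of counting error 195 to 891). BGAL9 fell in the line (-8.56 ± 0.20, edgeR adjusted p = 6.13e-06), and its value in Col_Kyn against Col_MS was 0.02 ± 0.11 (adjusted p = 0.957). Of the other 12 tested beta-galactosidase genes, 0 were called by edgeR or DESeq2 and 0 had an unadjusted p under 0.05. BGAL2 had 108 and 102 CPM in wei8tar2_MS, against 107 and 113 CPM in Col_Kyn and 38.5 and 43.6 CPM in Col_MS (-0.07 ± 0.11 between the line and Col_Kyn, adjusted p = 1.00), so that it stood above Col_MS in both. The median of the 13 was 0.03.

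Upstream sequences are shown for these genes at the extremes of the comparison and for TAA1, read from the TAIR10.1 RefSeq genome, each as the 250 bases before the annotated start of the gene, 5′ to 3′ on the strand of the gene. Capitals mark TATAAA or its reverse complement TTTATA, which overlap in the first window.
BGAL9, chr2:13925422-13925671, minus strand: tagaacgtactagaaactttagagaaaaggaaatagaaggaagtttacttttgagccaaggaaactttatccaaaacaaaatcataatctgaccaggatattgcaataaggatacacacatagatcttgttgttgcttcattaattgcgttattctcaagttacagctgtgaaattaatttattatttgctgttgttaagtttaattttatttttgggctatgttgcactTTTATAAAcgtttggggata
MRD1, chr1:19964713-19964962, minus strand: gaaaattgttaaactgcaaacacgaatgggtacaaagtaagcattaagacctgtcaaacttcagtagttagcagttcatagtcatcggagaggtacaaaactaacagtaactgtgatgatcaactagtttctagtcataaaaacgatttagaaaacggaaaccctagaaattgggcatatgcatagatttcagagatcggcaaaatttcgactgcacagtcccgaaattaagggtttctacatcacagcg
TAA1, chr1:26604605-26604854, plus strand: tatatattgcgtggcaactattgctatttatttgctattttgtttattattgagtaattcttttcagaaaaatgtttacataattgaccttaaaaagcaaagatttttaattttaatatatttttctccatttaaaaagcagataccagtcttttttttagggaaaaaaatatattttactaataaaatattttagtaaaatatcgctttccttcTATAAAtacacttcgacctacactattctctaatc
TATAAA was found on either strand in the windows of BGAL9 and TAA1 and was not found in that of MRD1, against 47.4% of the 27443 windows of protein-coding genes. The MRD1 window lies inside HEI10. The auxin response elements TGTCTC and TGTCGG, searched on both strands, were found in 0 of these 3 windows and in 14.7% of all windows. These are matches of letters and say nothing of binding.

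The other 2 called genes are little characterised. AT5G14840 (chromosome 5, 4798329 to 4800738, minus strand), annotated as a transcribed pseudogene, had 33.1 and 33.8 CPM in wei8tar2_MS, against 135 and 141 CPM in Col_Kyn and 142 and 119.5 CPM in Col_MS. It fell in the line relative to Col_Kyn (-2.04 ± 0.12, edgeR adjusted p = 0.00127), but its adjusted p was 0.0963 without wei8tar2_MS replicate 1 and 0.0884 without wei8tar2_MS replicate 2. AT4G20690 (chromosome 4, 11097242 to 11098024, minus strand), an uncharacterised protein-coding gene, had 1.80 and 1.46 CPM in wei8tar2_MS, against 13.5 and 14.5 CPM in Col_Kyn and 15.3 and 12.7 CPM in Col_MS. It fell as well (-3.10 ± 0.19, edgeR adjusted p = 0.00127), with an adjusted p of 0.0586 without wei8tar2_MS replicate 2. Each of these loci overlaps another annotated locus, AT5G00395 and AT4G20700 in this order, so that their reads are uncertain to that extent. In both, Col_Kyn lay with Col_MS, at 0.08 ± 0.12 and 0.00 ± 0.16 between those groups (adjusted p = 0.78 and 0.998).

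**Figure D2:**
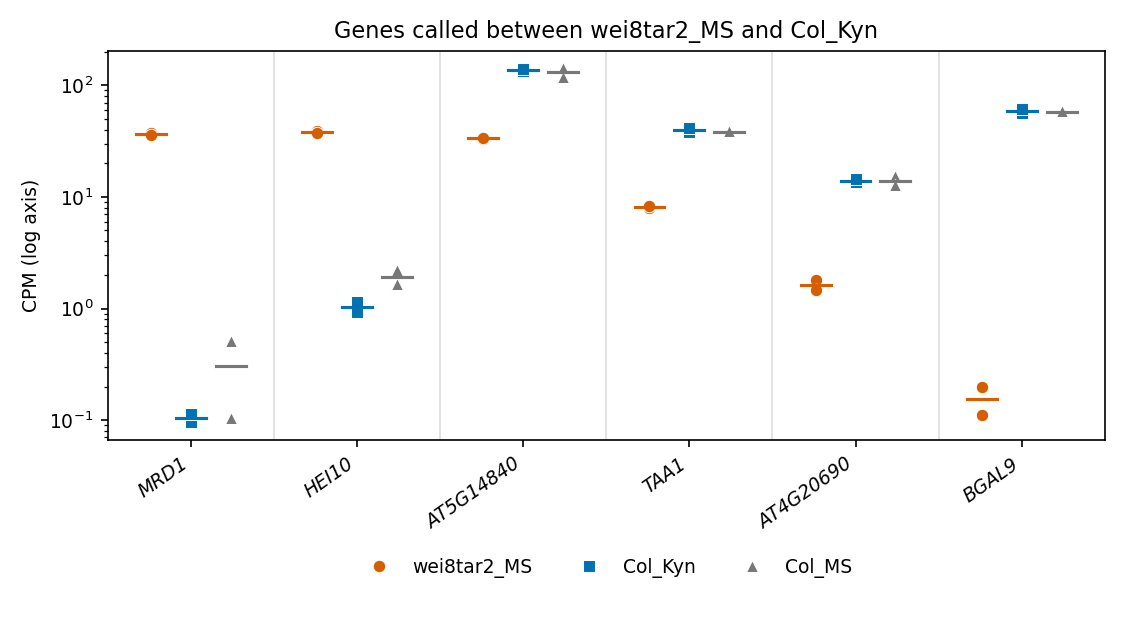
CPM of the 6 called genes in each library on a log axis, with wei8tar2_MS (circles), Col_Kyn (squares) and Col_MS (triangles); the bars are means of 2 libraries. In MRD1 and HEI10 the line lies above the wild-type libraries and in the other 4 genes below them. In those 4 genes Col_Kyn and Col_MS lie near each other, and in HEI10 Col_Kyn lies below Col_MS.

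The genes next to the called ones showed no such steps. MSL4, a mechanosensitive channel gene before MRD1, had 19.4 and 22.9 CPM in wei8tar2_MS, against 15.7 and 19.7 CPM in Col_Kyn, and MUM4, behind HEI10, had 89.7 and 95.1 CPM in wei8tar2_MS, against 102 and 86.9 CPM in Col_Kyn. AT1G70570, behind TAA1, had 64.5 and 58.4 CPM in wei8tar2_MS, against 65.3 and 58.05 CPM in Col_Kyn. Of the 11 different tested neighbours of the 6 genes, 0 had an unadjusted p under 0.05. Within 1 Mb on either side of TAA1, 19 of 440 tested genes had an unadjusted p under 0.05 (4.32%, as over all genes), and within 1 Mb of TAR2 27 of 466 (5.79%). The share was 2.98% around MRD1, 4.17% around BGAL9, 3.96% around AT5G14840 and 6.22% around AT4G20690. DESeq2 called 3 of the 466 genes around TAR2 and 3 of 386 around AT4G20690, against 0.272% of all tested genes. These windows overlap on chromosome 4. It called 1 gene around MRD1 and 0 around TAA1, BGAL9 and AT5G14840. By chromosome it ran from 3.83% on chromosome 1 to 4.96% on chromosome 2, and the 6 called genes lay on chromosomes 1, 2, 4 and 5.

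A further 8 genes had an edgeR adjusted p between 0.05 and 0.07, and DESeq2 called all of them. They were picked out after their values had been seen. In 7 of them Col_Kyn lay near Col_MS and the line apart. MSRB8 (AT4G21840, chromosome 4, 11586980 to 11588373), which encodes a methionine sulfoxide reductase, had 33.6 and 38.95 CPM in wei8tar2_MS, against 16.9 and 14.5 CPM in Col_Kyn and 14.99 and 14.7 CPM in Col_MS (1.20 ± 0.13, edgeR adjusted p = 0.0636). Its neighbour MSRB7, of the same family, had 144 and 193 CPM in wei8tar2_MS, against 86.8 and 77.8 CPM in Col_Kyn and 73.1 and 90.6 CPM in Col_MS (1.03 ± 0.17, adjusted p = 0.307, DESeq2 6.53e-05). Both stood higher in each library of the line than in any wild-type library. BT1, a BTB and TAZ domain scaffold protein, had 59.4 and 60.1 CPM in wei8tar2_MS, against 28.7 and 33.7 CPM in Col_Kyn and 25.1 and 25.9 CPM in Col_MS (0.94 ± 0.11, adjusted p = 0.0638). Its relative BT2, which responds to nitrate and sugar, had 112 and 104 CPM in wei8tar2_MS, against 42.7 and 68.7 CPM in Col_Kyn and 44.2 and 54.7 CPM in Col_MS (0.96 ± 0.22, adjusted p = 0.633, DESeq2 0.0201). The protein phosphatase 2C gene AT3G16800 had 32.2 and 33.4 CPM in wei8tar2_MS, against 15.5 and 16.4 CPM in Col_Kyn and 12.6 and 11.1 CPM in Col_MS (1.04 ± 0.12, adjusted p = 0.0636). It too was apart from both wild-type groups.

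The others of these 8 are loci without a known protein. The noncoding RNA locus AT4G04223 had 37.4 and 39.2 CPM in wei8tar2_MS, against 14.7 and 13.3 CPM in Col_Kyn and 9.49 and 13.03 CPM in Col_MS (1.45 ± 0.16, edgeR adjusted p = 0.0636). The pseudogene AT3G29120 had 3.49 and 3.19 CPM in wei8tar2_MS, against 0.256 and 0.40 CPM in Col_Kyn and 0.182 and 0.281 CPM in Col_MS (3.39 ± 0.38, adjusted p = 0.0636). Both had more reads in the line. The pseudogene locus AT1G20390 went the other way, with 9.32 and 6.86 CPM in wei8tar2_MS, against 63.9 and 79.4 CPM in Col_Kyn and 107 and 50.7 CPM in Col_MS (-3.14 ± 0.36, adjusted p = 0.0636), and so did its neighbour AT1G20400, with 0.257 and 0.0394 CPM in wei8tar2_MS, against 2.08 and 2.12 CPM in Col_Kyn and 3.46 and 1.05 CPM in Col_MS (-3.75 ± 0.81, adjusted p = 0.567). The pseudogene AT3G06433 had 5.65 and 7.33 CPM in wei8tar2_MS, against 23.2 and 21.9 CPM in Col_Kyn and 31.7 and 22.05 CPM in Col_MS (-1.80 ± 0.21, adjusted p = 0.0636), and the nearby pseudogene AT3G06437 had 0.808 and 0.867 CPM in wei8tar2_MS, against 3.43 and 4.23 CPM in Col_Kyn and 3.86 and 2.95 CPM in Col_MS (-2.18 ± 0.28, adjusted p = 0.0999). In these 4 loci the line was lowest in every library.

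The eighth was of the opposite kind. The peroxidase gene AT2G38390 (chromosome 2, 16079679 to 16081671) had 7.30 and 9.30 CPM in wei8tar2_MS, against 2.15 and 2.29 CPM in Col_Kyn and 12.6 and 16.7 CPM in Col_MS (1.91 ± 0.22, edgeR adjusted p = 0.0636, DESeq2 9.05e-08). Here Col_Kyn was lowest and the line lay between it and Col_MS. Against Col_MS the values were -0.82 ± 0.19 for the line (adjusted p = 0.0812) and -2.73 ± 0.22 for Col_Kyn (adjusted p = 0.0215). The calls on these 8 genes depended on the libraries left out, and their adjusted p reached 0.792 or more in at least 1 such fit each.

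More of the genes that DESeq2 alone called showed the same pattern as AT2G38390, in which kynurenine-fed seedlings stood farther from Col_MS. AT5G54370, a gene of the late-embryogenesis-abundant type, had 27.3 and 22.3 CPM in wei8tar2_MS, against 12.2 and 8.24 CPM in Col_Kyn and 99.4 and 67.1 CPM in Col_MS (1.26 ± 0.25, DESeq2 adjusted p = 0.00061, edgeR 0.471). The chitinase family gene AT2G43610 had 49.2 and 40.8 CPM in wei8tar2_MS, against 19.4 and 19.6 CPM in Col_Kyn and 141 and 72.5 CPM in Col_MS (1.21 ± 0.28, DESeq2 adjusted p = 0.00815). BGLU21, a beta-glucosidase of endoplasmic reticulum bodies, had 139 and 124 CPM in wei8tar2_MS, against 76.9 and 92.7 CPM in Col_Kyn and 234 and 232 CPM in Col_MS (0.64 ± 0.13, DESeq2 adjusted p = 0.0091). In these 3 genes both groups lay below Col_MS, and Col_Kyn lay lower. The root hair gene RSH2 had 5.73 and 8.67 CPM in wei8tar2_MS, against 2.95 and 2.57 CPM in Col_Kyn and 5.38 and 5.69 CPM in Col_MS (1.37 ± 0.24, DESeq2 adjusted p = 0.00762). BXL3, a beta-xylosidase of the cell wall, had 0.11 and 0.0788 CPM in wei8tar2_MS, against 1.67 and 0.972 CPM in Col_Kyn and 0.145 and 0.211 CPM in Col_MS (-3.76 ± 0.58, DESeq2 adjusted p = 0.0302), so that most of its reads came from Col_Kyn. The lipid-transfer protein gene AT5G09370 had 0.698 and 1.06 CPM in wei8tar2_MS, against 5.77 and 3.09 CPM in Col_Kyn and 0.473 and 1.09 CPM in Col_MS (-2.35 ± 0.47, DESeq2 adjusted p = 0.0102).

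In other genes that DESeq2 alone called, the line stood apart from both wild-type groups. LTI30, a dehydrin induced by cold, had 55.7 and 71.8 CPM in wei8tar2_MS, against 8.46 and 17.7 CPM in Col_Kyn and 10.5 and 18.1 CPM in Col_MS (2.31 ± 0.37, DESeq2 adjusted p = 0.0135, edgeR 0.268). RAP2.6, an ethylene response factor, had 10.6 and 13.5 CPM in wei8tar2_MS, against 2.27 and 3.77 CPM in Col_Kyn and 2.36 and 4.70 CPM in Col_MS (2.03 ± 0.36, DESeq2 adjusted p = 0.000223). SKOR, the potassium channel that loads the xylem, had 8.19 and 10.01 CPM in wei8tar2_MS, against 2.56 and 3.49 CPM in Col_Kyn and 4.29 and 5.27 CPM in Col_MS (1.61 ± 0.23, DESeq2 adjusted p = 6.53e-05). In all 3 the line was highest in each library. The oxygenase gene AT2G38240 had 1.69 and 1.62 CPM in wei8tar2_MS, against 0.0641 and 0.114 CPM in Col_Kyn and 0.0364 and 0.175 CPM in Col_MS (4.24 ± 0.64, DESeq2 adjusted p = 0.0091), and a second oxygenase gene, AT5G05600, had 24.9 and 29.1 CPM in wei8tar2_MS, against 11.9 and 11.5 CPM in Col_Kyn and 9.49 and 7.09 CPM in Col_MS (1.20 ± 0.17, DESeq2 adjusted p = 1.06e-05). EXPA2, an expansin, was lower in the line by DESeq2, with 3.49 and 4.49 CPM in wei8tar2_MS, against 16.4 and 10.1 CPM in Col_Kyn and 12.8 and 30.2 CPM in Col_MS (-1.75 ± 0.43, DESeq2 adjusted p = 0.0091). By the distance of the fitted values from Col_MS, 45 of the 58 genes called by DESeq2 stood farther from it in the line and 13 in Col_Kyn. Over all tested genes the line stood farther for 55.7%. This description uses the same Col_MS libraries for both and carries no test.

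**Figure D3:**
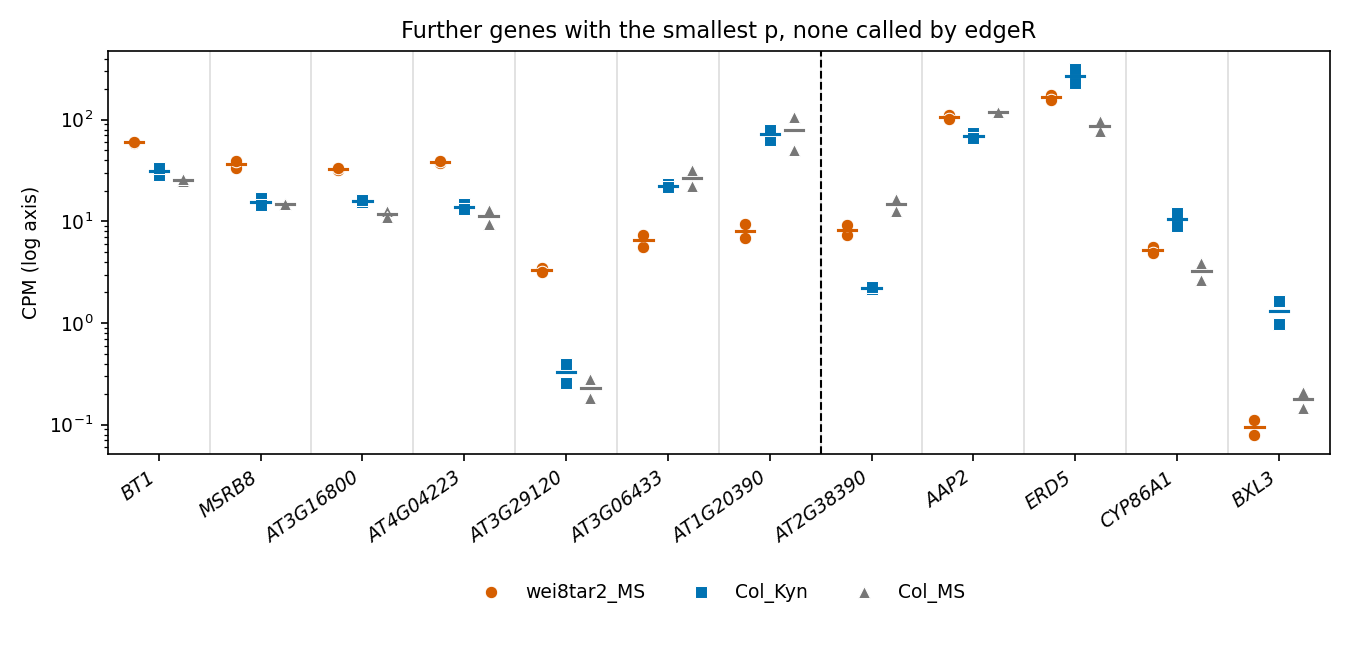
CPM of 12 further genes in each library on a log axis, with wei8tar2_MS (circles), Col_Kyn (squares) and Col_MS (triangles); the bars are means of 2 libraries. Left of the dashed line are 7 genes in which Col_Kyn lies near Col_MS and the line apart; right of it are 5 genes in which Col_Kyn lies apart from Col_MS, such as AT2G38390 with 2.15 and 2.29 CPM in Col_Kyn.

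Gene lists were described next, to show in which processes the line and the inhibitor stood apart or together. The 31 lists hold 497 loci, of which 462 were tested. TAA1 and BGAL9 were the only 2 list genes called by edgeR, against 0.0281% of all tested genes, and lists are therefore given by their medians and by members with an unadjusted p under 0.05, against 4.32% of all tested genes. Such members did not pass the adjusted test unless named as called. When single libraries were left out, the median of 13 of the 31 lists turned its sign in at least 1 fit, and that of 18 kept it.

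Among auxin-responsive genes, GH3.5 and GH3.6 had narrow intervals around 0, and other members went in both directions. The GH3 genes, whose products conjugate IAA with amino acids, had a median difference of 0.03 over 7 tested members, and 0 of the 7 had an unadjusted p under 0.05. Their differences ran from -0.57 to 0.53, and their median from -0.08 to 0.24 without single libraries. GH3.5 had 52.1 and 56.1 CPM in wei8tar2_MS, against 57.9 and 45.6 CPM in Col_Kyn and 139.6 and 106 CPM in Col_MS, and its direct difference was 0.06 ± 0.17 (95% interval -0.33 to 0.45). GH3.6 had 16.9 and 17.9 CPM in wei8tar2_MS, against 19.4 and 15.8 CPM in Col_Kyn and 42.96 and 37.1 CPM in Col_MS, with a direct difference of -0.03 ± 0.14 (95% interval -0.36 to 0.30). Both genes stood well under Col_MS in either group, and these intervals allow a difference between the groups of less than 1.5-fold. GH3.3 had 4.001 and 4.10 CPM in wei8tar2_MS, against 9.45 and 2.002 CPM in Col_Kyn and 23.4 and 20.7 CPM in Col_MS, and here the repeats of Col_Kyn differed so far that the sign of the direct difference, -0.57 ± 0.54, turned without Col_Kyn replicate 1. The median of the Aux/IAA family, repressors that auxin marks for degradation, was -0.01 over 25 members, 12 higher and 13 lower in the line with differences from -1.24 to 1.21, and for the auxin transport genes it was 0.01 over 14. In both lists 0 members had an unadjusted p under 0.05. IAA5, at the upper end of its family, had 0.587 and 1.77 CPM in wei8tar2_MS, against 0.288 and 0.801 CPM in Col_Kyn and 0.582 and 0.983 CPM in Col_MS (1.21 ± 0.70, 95% interval -0.42 to 2.84). With this spread between its repeats and at this depth, a difference of its size was not detectable. Genes of auxin oxidation and glucosylation had a median of 0.10. Among them UGT74E2, a glucosyltransferase of the auxin indole-3-butyric acid, had 5.47 and 4.49 CPM in wei8tar2_MS, against 1.99 and 1.60 CPM in Col_Kyn and 8.002 and 3.19 CPM in Col_MS (1.45 ± 0.43, adjusted p = 0.904, unadjusted p = 0.0106).

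Genes of tryptophan synthesis and of the indolic compounds made from it differed little by their medians. The tryptophan biosynthesis genes had a median of 0.07 over 11 members, with 1 at an unadjusted p under 0.05, and the indole glucosinolate and camalexin genes one of -0.04 over 13. ASA2, an anthranilate synthase subunit, had 16.996 and 18.9 CPM in wei8tar2_MS, against 25.5 and 20.7 CPM in Col_Kyn and 22.2 and 21.1 CPM in Col_MS (-0.37 ± 0.14, adjusted p = 1.00, unadjusted p = 0.030). MYB122, a regulator of indole glucosinolate genes, had 6.20 and 7.17 CPM in wei8tar2_MS, against 3.94 and 3.20 CPM in Col_Kyn and 4.07 and 4.70 CPM in Col_MS (0.89 ± 0.20, adjusted p = 0.633, unadjusted p = 0.00255). CYP79B3, which converts tryptophan to indole-3-acetaldoxime, had 44.6 and 51.6 CPM in wei8tar2_MS, against 93.4 and 59.8 CPM in Col_Kyn and 139 and 80.4 CPM in Col_MS (-0.67 ± 0.29, unadjusted p = 0.048). MYB122 was highest in the line in both repeats, while CYP79B3 was spread within Col_Kyn and within Col_MS.

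Genes of cytokinin synthesis and its type-A response regulators had a median of 0.24 over 20 members, 16 of them positive, and the median ran from 0.14 to 0.31 when single libraries were left out. LOG7, which releases active cytokinin from its nucleotide, had 18.9 and 16.3 CPM in wei8tar2_MS, against 9.90 and 11.3 CPM in Col_Kyn and 10.3 and 9.27 CPM in Col_MS (0.74 ± 0.15, edgeR adjusted p = 0.474, unadjusted p = 0.00117). IPT3, which makes the first cytokinin precursor, had 21.4 and 18.4 CPM in wei8tar2_MS, against 13.5 and 14.8 CPM in Col_Kyn and 12.1 and 9.62 CPM in Col_MS (0.50 ± 0.16, unadjusted p = 0.014). CYP735A2, the hydroxylase of trans-zeatin synthesis, had 29.4 and 27.8 CPM in wei8tar2_MS, against 21.5 and 21.8 CPM in Col_Kyn and 8.62 and 8.50 CPM in Col_MS (0.40 ± 0.11, unadjusted p = 0.00648). These were the 3 members at that level. CYP735A2 stood far above Col_MS in both groups, and LOG7 mainly in the line.

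The nitrate list had 6 of its 13 tested members at an unadjusted p under 0.05, all of them higher in the line, and a median of 0.23 (from 0.22 to 0.33 without single libraries). Of the 13, 10 were higher and 3 lower. The summed level of the list was 2731 and 2944 CPM in wei8tar2_MS, against 2743 and 2654 CPM in Col_Kyn. NRT3.1, the partner protein of high-affinity nitrate transporters, had 21.1 and 20.6 CPM in wei8tar2_MS, against 12.1 and 8.52 CPM in Col_Kyn and 13.1 and 11.8 CPM in Col_MS (1.00 ± 0.18, edgeR adjusted p = 0.373, DESeq2 0.00304). LBD38, a repressor of nitrogen-responsive genes, had 69.7 and 76.6 CPM in wei8tar2_MS, against 48.98 and 51.99 CPM in Col_Kyn and 49.6 and 45.6 CPM in Col_MS (0.54 ± 0.11, adjusted p = 0.474, DESeq2 0.0388), and its relative LBD37 had 149 and 152 CPM in wei8tar2_MS, against 87.97 and 117 CPM in Col_Kyn and 98.2 and 99.01 CPM in Col_MS (0.56 ± 0.14, adjusted p = 0.744). In these the line was highest in each library. NRT1.5, which loads nitrate into the xylem, had 341 and 322 CPM in wei8tar2_MS, against 199 and 259 CPM in Col_Kyn and 169 and 230.1 CPM in Col_MS (0.54 ± 0.18, unadjusted p = 0.0209). The more abundant NRT1.1 lay the other way, with 735 and 788 CPM in wei8tar2_MS, against 958 and 883 CPM in Col_Kyn and 692 and 749 CPM in Col_MS (-0.27 ± 0.12, unadjusted p = 0.0554). The nitrate reductase genes NIA1 and NIA2 stood at -0.03 ± 0.31 and 0.18 ± 0.33, with Col_MS replicate 1 far above replicate 2 in both, 709.96 and 329.8 CPM for NIA1. Among amino acid transport and catabolism genes (median 0.07, 21 members, 3 higher and 1 lower at an unadjusted p under 0.05), AAP2, a permease of the vasculature, had 110.3 and 101 CPM in wei8tar2_MS, against 73.2 and 66.7 CPM in Col_Kyn and 116 and 119 CPM in Col_MS (0.59 ± 0.11, adjusted p = 0.402, DESeq2 0.00309). ERD5, a proline dehydrogenase, had 174 and 157 CPM in wei8tar2_MS, against 315 and 227 CPM in Col_Kyn and 77.7 and 96.2 CPM in Col_MS (-0.71 ± 0.18, adjusted p = 0.744). AAP2 was lowest and ERD5 highest in Col_Kyn.

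Genes of root functions were read in whole seedlings and not in isolated roots. FIT, the master regulator of iron uptake, had 11.2 and 8.52 CPM in wei8tar2_MS, against 5.83 and 4.92 CPM in Col_Kyn and 4.84 and 6.53 CPM in Col_MS (0.86 ± 0.22, edgeR adjusted p = 0.744, unadjusted p = 0.00505). The iron transporter gene IRT1 had 121 and 134 CPM in wei8tar2_MS, against 98.5 and 52.2 CPM in Col_Kyn and 33.1 and 23.1 CPM in Col_MS (0.75 ± 0.29, unadjusted p = 0.0325), and BHLH39 had 5.80 and 5.68 CPM in wei8tar2_MS, against 4.13 and 2.80 CPM in Col_Kyn and 4.73 and 3.27 CPM in Col_MS (0.70 ± 0.26, unadjusted p = 0.0295). These were the 3 members at that level. BHLH100, of the same group of iron regulators as BHLH39, lay the other way, with 0.477 and 0.907 CPM in wei8tar2_MS, against 1.63 and 1.37 CPM in Col_Kyn and 0.727 and 0.281 CPM in Col_MS (-1.13 ± 0.51, unadjusted p = 0.0591). The iron list had a median of 0.21 over 14 members, 10 higher and 4 lower (from 0.04 to 0.34 without single libraries), and FIT stood higher in the line than in any wild-type library. The summed level of the list was 2905 and 2974 CPM in wei8tar2_MS, against 3476 and 2894 CPM in Col_Kyn. AHA2, an abundant member among the lower ones, had 2606 and 2659 CPM in wei8tar2_MS, against 3212 and 2702 CPM in Col_Kyn (-0.17 ± 0.14). Suberin and Casparian strip genes had a median of -0.11, with 14 of 17 negative (from -0.18 to -0.05 without single libraries). The reference genes had about the same median, -0.11, with 7 of 10 negative. CYP86A1, a fatty acid hydroxylase of suberin synthesis, had 5.54 and 4.85 CPM in wei8tar2_MS, against 12.1 and 9.04 CPM in Col_Kyn and 3.86 and 2.67 CPM in Col_MS (-1.03 ± 0.23, adjusted p = 0.633, unadjusted p = 0.00254). Casparian strip gene CASP1 had 181 and 168 CPM in wei8tar2_MS, against 177 and 185 CPM in Col_Kyn and 116 and 129 CPM in Col_MS (-0.05 ± 0.11). Root hair genes had a median of 0.28 over 13 members with 0 at an unadjusted p under 0.05, and it became 0.055 without wei8tar2_MS replicate 2 and 0.453 without Col_Kyn replicate 1. The 8 tested genes of the stem-cell niche and root cap had a median of 0.20, 4 higher and 4 lower, which became 0.062 without wei8tar2_MS replicate 1 and 0.39 without Col_Kyn replicate 1. WOX5, the organiser gene of the stem-cell niche, had 1.43 and 2.40 CPM in wei8tar2_MS, against 0.416 and 0.629 CPM in Col_Kyn and 0.436 and 0.948 CPM in Col_MS (1.91 ± 0.51, adjusted p = 0.789, unadjusted p = 0.00622), whereas PLT1, a regulator of the root meristem, had 0.22 and 0.158 CPM in wei8tar2_MS, against 0.16 and 0.114 CPM in Col_Kyn and 1.56 and 0.702 CPM in Col_MS (0.40 ± 0.79, 95% interval -1.44 to 2.25). PLT1 was thus low in both groups, at levels where a 2-fold difference between them was not detectable.

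Seed storage and oleosin genes had the largest median of the 31 lists, 0.99, with all 14 tested members positive and 5 at an unadjusted p under 0.05. SESA4, of the same list but left out by the filter on low counts, went the other way. It had 0.11 and 0.118 CPM in wei8tar2_MS, against 0.224 and 0.229 CPM in Col_Kyn, near the floor of 3 reads. The filter keeps a low gene that is high in 1 group, so these counts of members carry no test. The median became 2.39 without Col_Kyn replicate 1 and 1.44 without wei8tar2_MS replicate 2, and it was 0.76 to 0.98 without each of the other libraries. OLEO2, an oil body protein, had 1.32 and 0.67 CPM in wei8tar2_MS, against 0.128 and 0.0572 CPM in Col_Kyn and 1.31 and 1.16 CPM in Col_MS (3.24 ± 0.62, edgeR adjusted p = 0.449). RAB18, a dehydrin of seeds and drought, had 6.06 and 4.34 CPM in wei8tar2_MS, against 0.961 and 2.06 CPM in Col_Kyn and 5.97 and 3.23 CPM in Col_MS (1.85 ± 0.44, adjusted p = 0.643, DESeq2 0.0365). EM1, a late-embryogenesis protein, had 32 reads in the 2 libraries of wei8tar2_MS and 0 in the 2 of Col_Kyn, which is at least 9.87-fold higher against 3 reads over the group. This bound still lies above the list median of 0.99, so putting EM1 at it could not move the median. The summed level of the list varied within groups, at 101 and 74.5 CPM in wei8tar2_MS, against 64.2 and 52.2 CPM in Col_Kyn and 134 and 67.3 CPM in Col_MS. The main storage protein gene CRA1 alone had 23.5 and 14.7 CPM in wei8tar2_MS, against 17.6 and 0.686 CPM in Col_Kyn and 49.7 and 9.80 CPM in Col_MS, so that the groups overlapped. The part of this spread between repeats in the list's difference was not tested.

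The genes that turn seed oil into sugar lay on the other side. Oil mobilisation and glyoxylate genes had a median of -0.16, 14 of 16 negative and 4 at an unadjusted p under 0.05 (median from -0.21 to -0.10 without single libraries). ICL, the isocitrate lyase of the glyoxylate cycle, had 1765 and 2066 CPM in wei8tar2_MS, against 6513 and 2723 CPM in Col_Kyn and 10623 and 6324 CPM in Col_MS (-1.27 ± 0.41, adjusted p = 0.997). MLS, the malate synthase of the same cycle, had 127 and 166 CPM in wei8tar2_MS, against 367 and 193 CPM in Col_Kyn and 713 and 563 CPM in Col_MS (-0.94 ± 0.29, adjusted p = 0.981). Both were lowest in the line and, by their means, highest in Col_MS, with Col_Kyn replicate 1 well above replicate 2. PCK1, the first enzyme of gluconeogenesis, had 1121 and 1107 CPM in wei8tar2_MS, against 1958 and 1327 CPM in Col_Kyn and 1892 and 1634 CPM in Col_MS (-0.56 ± 0.19, unadjusted p = 0.0216). Dark-inducible and sugar-starvation genes had a median of 0.12 over 18 members, 12 higher and 6 lower, with 3 higher and 1 lower at an unadjusted p under 0.05. The median was -0.0011 without wei8tar2_MS replicate 1 and 0.22 without wei8tar2_MS replicate 2. BT2, described above, and ATL8, a RING protein gene with 15.1 and 18.5 CPM in wei8tar2_MS, against 11.4 and 12.1 CPM in Col_Kyn and 12.9 and 13.03 CPM in Col_MS (0.51 ± 0.14, unadjusted p = 0.00762), were higher in the line. DIN9, a mannose-6-phosphate isomerase gene, had 7.34 and 6.90 CPM in wei8tar2_MS, against 4.97 and 5.66 CPM in Col_Kyn and 4.91 and 5.55 CPM in Col_MS (0.43 ± 0.17, unadjusted p = 0.0391). On the lower side, the raffinose synthase family gene DIN10 had 538 and 454 CPM in wei8tar2_MS, against 759 and 591 CPM in Col_Kyn and 303 and 327 CPM in Col_MS (-0.45 ± 0.16, unadjusted p = 0.024).

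Light harvesting and Rubisco genes set the repeats of Col_Kyn apart rather than the groups. Over the 26 members the median log2 level of Col_Kyn replicate 2 exceeded that of replicate 1 by 1.304, and the summed level was 15254 and 15707 CPM in wei8tar2_MS, against 9839 and 19995 CPM in Col_Kyn and 13046 and 14358 CPM in Col_MS. LHCB1.4, a chlorophyll-binding protein gene, had 14.6 and 15.1 CPM in wei8tar2_MS, against 1.51 and 18.5 CPM in Col_Kyn and 2.44 and 3.79 CPM in Col_MS. In 0 of the 26 did the groups not overlap, against 35.6% of all tested genes. The direct median of 0.11 became -0.36 without Col_Kyn replicate 1 and 0.95 without Col_Kyn replicate 2, and no difference can be read from it.

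**Figure D4:**
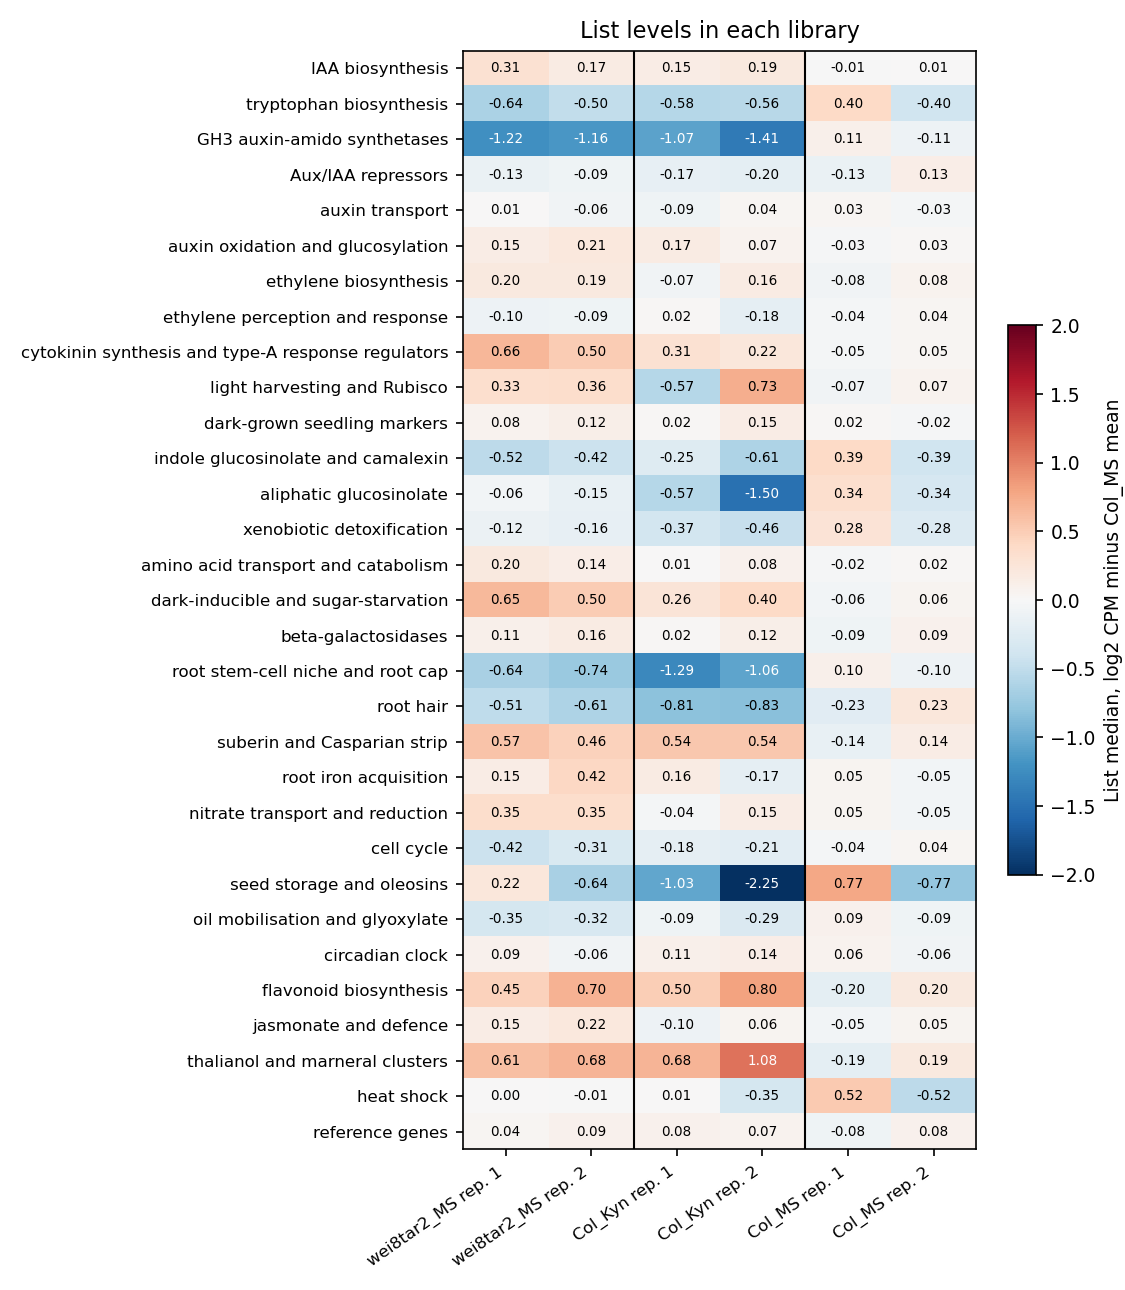
Median log2 CPM of each gene list in each library, minus the mean of the Col_MS libraries; columns are libraries and rows the 31 lists, with red above and blue below Col_MS. The line and Col_Kyn share low values of the GH3 genes, from -1.41 to -1.07, and Col_Kyn replicates 1 and 2 differ in light harvesting, at -0.57 and 0.73.

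Ethylene biosynthesis genes had a median of 0.12 and the genes of ethylene perception and response one of -0.04, each with 1 member at an unadjusted p under 0.05. In the biosynthesis list this was ACS9, lower in the line and with few reads. It had 1 and 0 reads in wei8tar2_MS, against 5 and 6 reads in Col_Kyn and 26 and 38 reads in Col_MS (-3.33 ± 1.09, unadjusted p = 0.0169). ERF1B, an ethylene response factor, had 0.477 and 0.512 CPM in wei8tar2_MS, against 1.12 and 0.858 CPM in Col_Kyn and 1.38 and 1.51 CPM in Col_MS (-1.02 ± 0.37, unadjusted p = 0.027), and the receptor gene ETR2 had 55.3 and 64.8 CPM in wei8tar2_MS, against 112 and 57.2 CPM in Col_Kyn and 98.7 and 91.4 CPM in Col_MS, again with the repeats of Col_Kyn far apart. The cell cycle list had a median of -0.12 over 24 members, close to the -0.11 of the reference genes, and ran from -0.12 to -0.08 without single libraries. The xenobiotic detoxification genes had a median of 0.15 over 27 members, with 2 higher and 1 lower at an unadjusted p under 0.05, among which the glutathione transferase gene GSTU20 had 26.1 and 30.99 CPM in wei8tar2_MS, against 47.9 and 40.5 CPM in Col_Kyn and 53.9 and 60.8 CPM in Col_MS (-0.63 ± 0.14, edgeR adjusted p = 0.567) and GSTU2 had 3.82 and 3.19 CPM in wei8tar2_MS, against 2.11 and 2.12 CPM in Col_Kyn and 3.46 and 2.39 CPM in Col_MS (0.73 ± 0.26). The members thus went in both directions. Flavonoid biosynthesis genes had a median of -0.15 and differences from -0.55 to 1.13, with 1 member higher and 2 lower at an unadjusted p under 0.05. The median turned to 0.057 without wei8tar2_MS replicate 1 and was -0.31 without wei8tar2_MS replicate 2. Of the lower members, CHS, the chalcone synthase, had 286 and 344 CPM in wei8tar2_MS, against 357 and 477 CPM in Col_Kyn and 260.3 and 285 CPM in Col_MS (-0.40 ± 0.17, unadjusted p = 0.0452). The thalianol and marneral clusters had a median of -0.19, which was -0.43 without Col_Kyn replicate 1 and 0.14 without Col_Kyn replicate 2. THAS1, the thalianol synthase, had 122 and 132 CPM in wei8tar2_MS, against 150.1 and 173 CPM in Col_Kyn and 67.6 and 74.96 CPM in Col_MS (-0.35 ± 0.12, unadjusted p = 0.0226). THAS1 stood above Col_MS in both groups and higher in Col_Kyn. The clock gene CCA1 had 19.3 and 22.00 CPM in wei8tar2_MS, against 15.5 and 16.8 CPM in Col_Kyn and 7.86 and 7.20 CPM in Col_MS (0.36 ± 0.13, unadjusted p = 0.0278), in a list of 4 higher and 11 lower members with a median of -0.06 (from -0.11 to 0.05 without single libraries). The median of the aliphatic glucosinolate genes was 0.13, and 1.35 without Col_Kyn replicate 1. That of the heat shock genes was 0.07, and 0.41 without wei8tar2_MS replicate 2. That of the dark-grown seedling genes was 0.13, and it was -0.0094 without Col_Kyn replicate 1 and 0.34 without Col_Kyn replicate 2. The medians were 0.08 for jasmonate and defence (from 0.00 to 0.17 without single libraries) and -0.11 for reference genes (from -0.14 to -0.04).

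**Figure D5:**
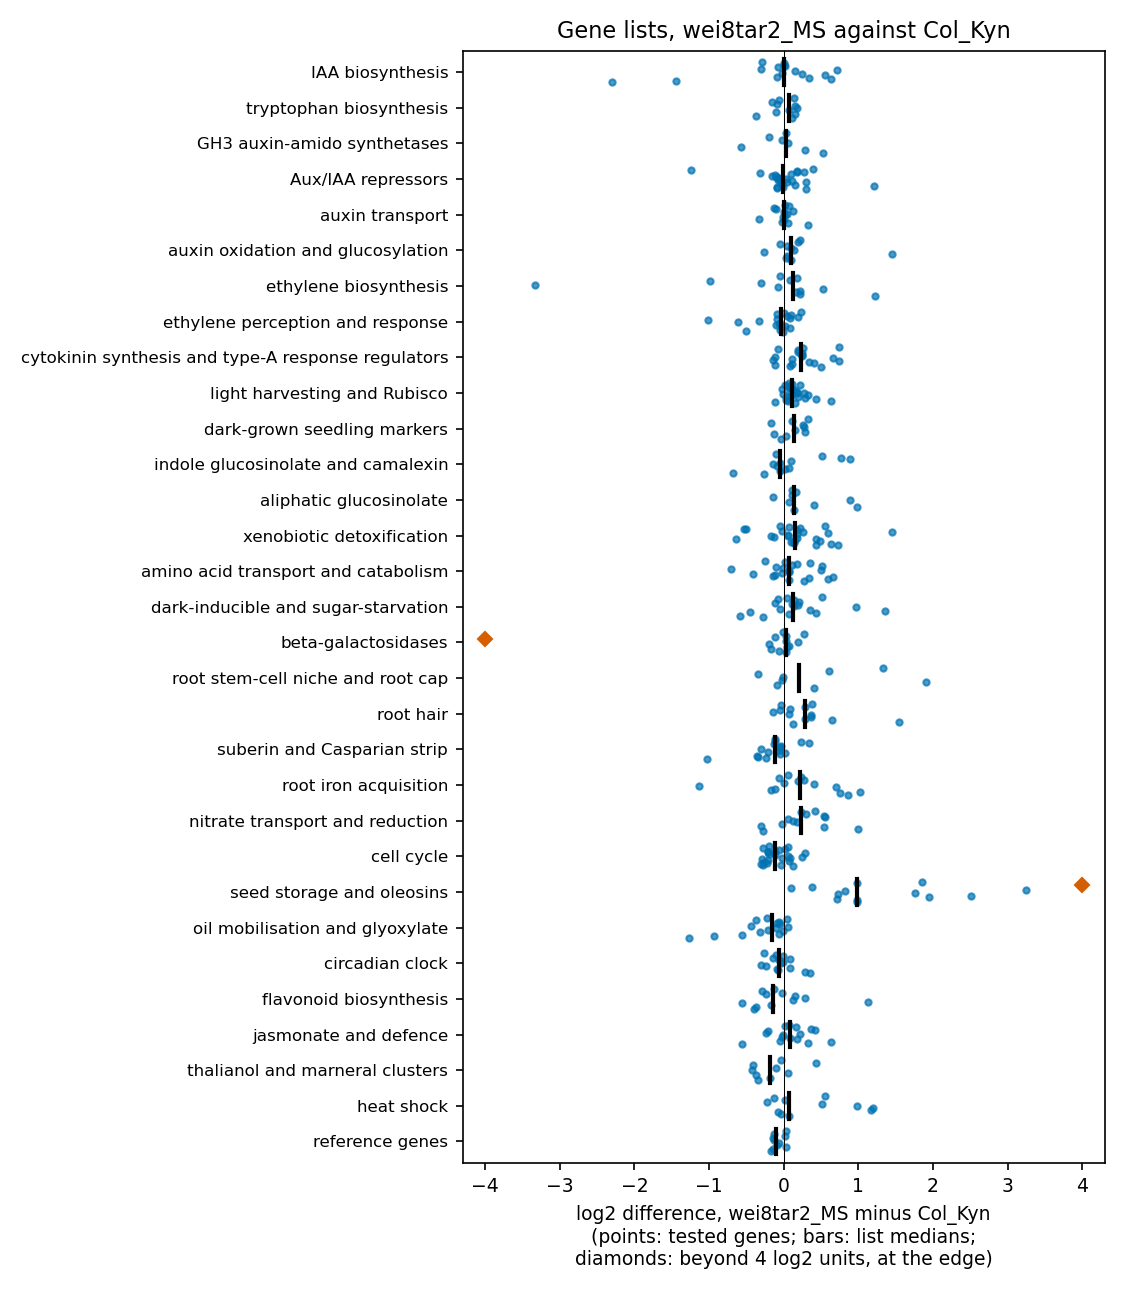
Log2 difference, wei8tar2_MS minus Col_Kyn (horizontal axis), of the tested genes of each of the 31 lists (rows); points are genes, black bars list medians, and diamonds 2 genes beyond 4 log2 units, BGAL9 and EM1. Apart from the seed storage and oleosin genes, with a median of 0.99, the medians lie between -0.19 and 0.28.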

How the data were processed

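Messenger RNA was sequenced from whole etiolated seedlings. Per the submitters' processing notes, TopHat 1.3.0 and the TAIR10 genome were used. Which program counted the reads, with which strand setting and annotation release, is not given in the sources used here. The deposited tables list, per the file headers, raw counts of uniquely mapped reads per gene, and genes not listed were taken as 0. In the same tables the authors give RPKM, the count scaled by listed length and library total, which served as a check alone. RPKM recomputed from the counts differed by a relative 8.48e-14 at most.

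The counts of all 6 libraries entered 1 fit of edgeR 4.0.16 under R 4.3.3 (TMM, filterByExpr by group, 1 coefficient per group, quasi-likelihood F-test, Benjamini-Hochberg adjustment over 21326 genes). Standard errors are the log2 difference divided by the square root of F. DESeq2 1.42.0, limma-voom (limma 3.58.1), RLE factors, no filter, a fit of 4 libraries, a replicate block and fits without each library were alternatives. The scripts were tested on simulated counts. The p-values measure the spread of biological repeats, whose separate origin the labels do not detail. Intervals of log2 differences come from the edgeR fit, whereas those of read ratios, and floors (3 reads), cover counting error only.

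Named genes were TAA1, TAR1 and TAR2, called genes with at least 4 CPM in a group and no overlap, and for each list its called members or else up to 3 with the smallest p. Genes with the 20 smallest p and those called by DESeq2 were added after their values were seen, as were list members named for comparison. The comparison and the 31 lists were chosen with earlier results of these data known. Loci were matched by name to the TAIR10.1 RefSeq annotation (25911 of 26185 loci), from which symbols, coordinates and sequences come; no coordinates were converted.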

Additional observations from a re-analysis of the deposited data

How the results depend on the processing

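Between wei8tar2_MS and Col_Kyn, 6 genes were called, and the count was 58 with DESeq2, 26 without a filter on low counts, 11 with the 4 libraries alone, and 4 to 17 when single libraries were left out. RLE factors and limma-voom each gave 6. All 6 genes were called in every one of these fits except without wei8tar2_MS replicate 1, where 5 were, and without wei8tar2_MS replicate 2, where 4 were. Between wei8tar2_MS and Col_MS the 230 calls became 1333 with DESeq2, 1113 without the filter and 4 to 1644 without single libraries. Between Col_Kyn and Col_MS the 78 became 750 with DESeq2, 50 with limma-voom, 409 without the filter and 0 to 992 without single libraries. The causes were not tested. With the replicate numbers as a block, the counts were 12, 367 and 130 in the same order of comparisons. Libraries with equal numbers departed from their group means with a correlation of -0.039 for the line and Col_Kyn, 0.022 for the line and Col_MS and 0.202 for Col_Kyn and Col_MS, so the numbers were not taken to pair the libraries. Among single genes the sign turned when a library was left out for LHCB1.4 (-0.32 to 3.31), LHCB2.1 (-0.18 to 1.403), LHCB4.2 (-0.29 to 1.42), GH3.3 (-1.21 to 1.01) and ETR2 (-0.89 to 0.0701), each without Col_Kyn replicate 1, and for PAI3 (-0.0564 to 0.338) without wei8tar2_MS replicate 1. With 2 libraries per group and a median standard error of 0.39 below 4 CPM, differences of low genes were often not detectable.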

Other observations

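Some loci were read in 1 of the groups and nearly unread in the other. With at least 0.5 CPM in both libraries of a group and at most 3 reads in each library of the other, 8 loci were on in wei8tar2_MS and 8 were on in Col_Kyn, of 26185 loci with a read. They were chosen by these values and carry no test. Both Col_MS libraries had at most 3 reads for 2 of the loci on in the line and for 1 of those on in Col_Kyn. Of those on in the line, the pseudogene AT1G42050 had 26 and 20 reads in wei8tar2_MS and 0 reads in the libraries of Col_Kyn and of Col_MS, which is at least 14.2-fold above a floor of 3 reads over the Col_Kyn group. The pseudogene AT5G28335 had 31 and 25 reads in wei8tar2_MS, against 1 and 0 reads in Col_Kyn and 0 reads in Col_MS. Of those on in Col_Kyn, SK3, an SKP1-like subunit of ubiquitin ligases, had 3 and 0 reads in wei8tar2_MS, against 35 and 19 reads in Col_Kyn and 0 reads in Col_MS. The peptidase gene AT4G23360 had 1 and 3 reads in wei8tar2_MS, against 66 and 12 reads in Col_Kyn and 0 and 4 reads in Col_MS. The subtilisin-like protease gene AT5G58820 had 3 and 3 reads in wei8tar2_MS, against 27 and 17 reads in Col_Kyn and 0 and 5 reads in Col_MS. Other loci on in Col_Kyn were also read in untreated wild type. AT1G52800 had 2 and 3 reads in wei8tar2_MS, 26 and 9 reads in Col_Kyn and 23 and 28 reads in Col_MS. AT5G45570 had 2 and 0 reads in wei8tar2_MS, 28 and 13 reads in Col_Kyn and 42 and 11 reads in Col_MS.

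Loci annotated as pseudogenes made up 8 of the 58 genes called by DESeq2 between the line and Col_Kyn (13.8%), against 329 of the 21326 tested genes (1.54%). Of these 8, 6 were lower and 2 higher in the line. At an unadjusted edgeR p under 0.05 they made up 34 of 921 genes (3.69%). These shares were noticed in the data and carry no test.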
